A study of Mus musculus with 10 samples.

Results

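A set of 10 genes that mouse macrophages and dendritic cells are known to switch on under interleukin-4 were followed through 10 tumours, 5 grown on an arginine-deficient diet and 5 on a normal diet. They are the lectin genes Mgl2, Clec10a and Mrc1, the chemokine genes Ccl8, Ccl17, Ccl22 and Ccl24, and F13a1, Retnla and Chil3, which encode secreted proteins. They were chosen by name, each matched 1 of the 21849 rows of the gene count table, and 8 of the 10 had enough counts to be tested. The tumours came from CT26, a mouse colon carcinoma line, placed under the skin of BALB/c mice that were 5 weeks old when assigned to a diet. The deficient feed matched the control feed in calories, both were fed for 1 week before implantation, and tumours were taken on day 20. All mice carried the same line and no other treatment is named. Each library held RNA of a whole tumour, host cells included.

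Interleukin-4 and interleukin-13 act on macrophages through receptors that contain the Il4ra chain and through the transcription factor STAT6. Macrophages exposed to them carry more mannose receptor (Mrc1) and galactose-binding lectins (Clec10a and Mgl2) on their surface, and secrete chemokines that draw cells bearing Ccr4, Ccr3 or Ccr8. In tumours, macrophages with this profile are commonly set against inflammatory macrophages. None of the genes belongs to macrophages alone: Mgl2, Clec10a, Ccl17 and Ccl22 are also known from dendritic cells, F13a1 and Chil3 from monocytes, and Retnla from fat tissue. In whole-tumour RNA, a change in the number of such cells cannot be told apart from a change in RNA per cell.

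Library totals ran from 12013178 to 31530123 counts. Levels are given as CPM, counts per 1000000 library counts after scaling with TMM factors, which correct for differences in library composition. Skeletal muscle markers were abundant in deficient replicates 3 and 4 (summed level 6218 and 1612 CPM) and normal-diet replicate 4 (563 CPM), with 5.01 to 74.0 CPM in the remaining 7 tumours. Mitochondrial genes took 9.97% of counts in deficient replicate 3 and 1.67% to 4.44% in the others. Of the 12 carcinoma markers, from which those named were chosen after their values were seen, Cd44 averaged 763 CPM (deficient diet) and 747 CPM (normal diet), whereas the epithelial gene Epcam had 0 to 9 counts per library and Krt8 8 to 27. Keratinocyte markers summed to at most 7.60 CPM.

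Promoter sequence was found for 8 of the genes, in 9 windows of 300 bases from RefSeq (GRCm38.p6) that run from 250 bases before to 50 after a start site. The sequences bear on which of these promoters hold the letters that STAT6 is known to bind, TTC and GAA with 4 bases of any kind between them, which read the same on both strands. These letters stood in 2 of the 9 windows, those of Ccl17 and Retnla, and in 6.95% of all 32851 windows. In the stretches shown, written 5′ to 3′ along the gene's strand, capitals mark the match, at -154 to -145 in Ccl17 (chr8:94810279-94810328, plus strand) and at -145 to -136 in Retnla (chr16:48842444-48842493, plus strand), counted from the start site.

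Ccl17: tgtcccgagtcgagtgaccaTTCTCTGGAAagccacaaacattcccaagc

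Retnla: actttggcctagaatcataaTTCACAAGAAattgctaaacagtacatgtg

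The other sequences shown are the 250 bases before the RefSeq start sites of Ccl8 (chr11:82114935-82115184, plus strand) and Mgl2 (chr11:70130107-70130356, plus strand). Ccl8 was the gene whose diets did not overlap and Mgl2 the gene with the largest log2 fold change among those tested. Capitals in Ccl8 mark an ETS and IRF composite, GGAA and GAAA with 2 bases of any kind between them, searched on both strands and here read on the opposite strand at -79 to -70, and the TATA box letters TATAAA at -32 to -27. The composite stood in 2.72% of all windows and TATAAA in 13.6%. The Mgl2 window held neither of these nor the STAT6 letters, the shorter STAT letters TTCNNNGAA (8.3% of windows) or the PU.1 letters GAGGAAGT (3.2% of windows). That says only that these letters are not in this window.

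Ccl8: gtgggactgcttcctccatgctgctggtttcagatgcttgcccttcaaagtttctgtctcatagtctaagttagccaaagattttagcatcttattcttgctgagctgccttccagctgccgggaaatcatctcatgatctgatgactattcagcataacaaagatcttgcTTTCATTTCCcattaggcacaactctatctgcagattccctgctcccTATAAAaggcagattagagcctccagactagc

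Mgl2: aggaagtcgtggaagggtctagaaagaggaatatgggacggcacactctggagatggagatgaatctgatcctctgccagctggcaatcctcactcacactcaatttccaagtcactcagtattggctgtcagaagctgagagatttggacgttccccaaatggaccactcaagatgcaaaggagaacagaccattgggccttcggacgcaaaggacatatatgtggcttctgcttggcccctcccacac

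The diets were compared to ask whether genes of this profile differ in tumours of mice on the arginine-deficient diet. The fitted log2 fold changes of the 8 tested genes were positive, from 0.02 for Ccl17 to 1.07 for Mgl2, as were those of 50.3% of all tested genes. The mean CPM was higher on the deficient diet for 7 of the 8 and lower for Ccl17. None of the 8 passed the test over all 12929 tested genes (edgeR quasi-likelihood test, Benjamini-Hochberg adjusted p from 0.369 to 0.999). In that comparison 0.0541% of all tested genes passed. At an unadjusted p under 0.05, 5 of the 8 were higher on the deficient diet, against 3.54% of all tested genes in that direction and 6.74% in either. The count was 3 of 8 without the 3 muscle-rich tumours, where Clec10a and Mrc1 missed it, and 3 of 8 with dendritic cell markers as a covariate, where Mgl2 and Ccl8 did. The median log2 fold change was 0.69 over the 8 genes and 0.00 over all tested genes; the genes were taken up with earlier results of these data known, and the 8 exclude those with too few counts. By DESeq2 1 gene passed, Mgl2 (adjusted p = 0.0487), where 0.506% of genes passed as higher. By limma voom with sample weights 3 passed, Mgl2, Clec10a and F13a1 (adjusted p = 0.0267, 0.0155 and 0.00914), where 1.59% of genes passed as higher.

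**Figure D1:**
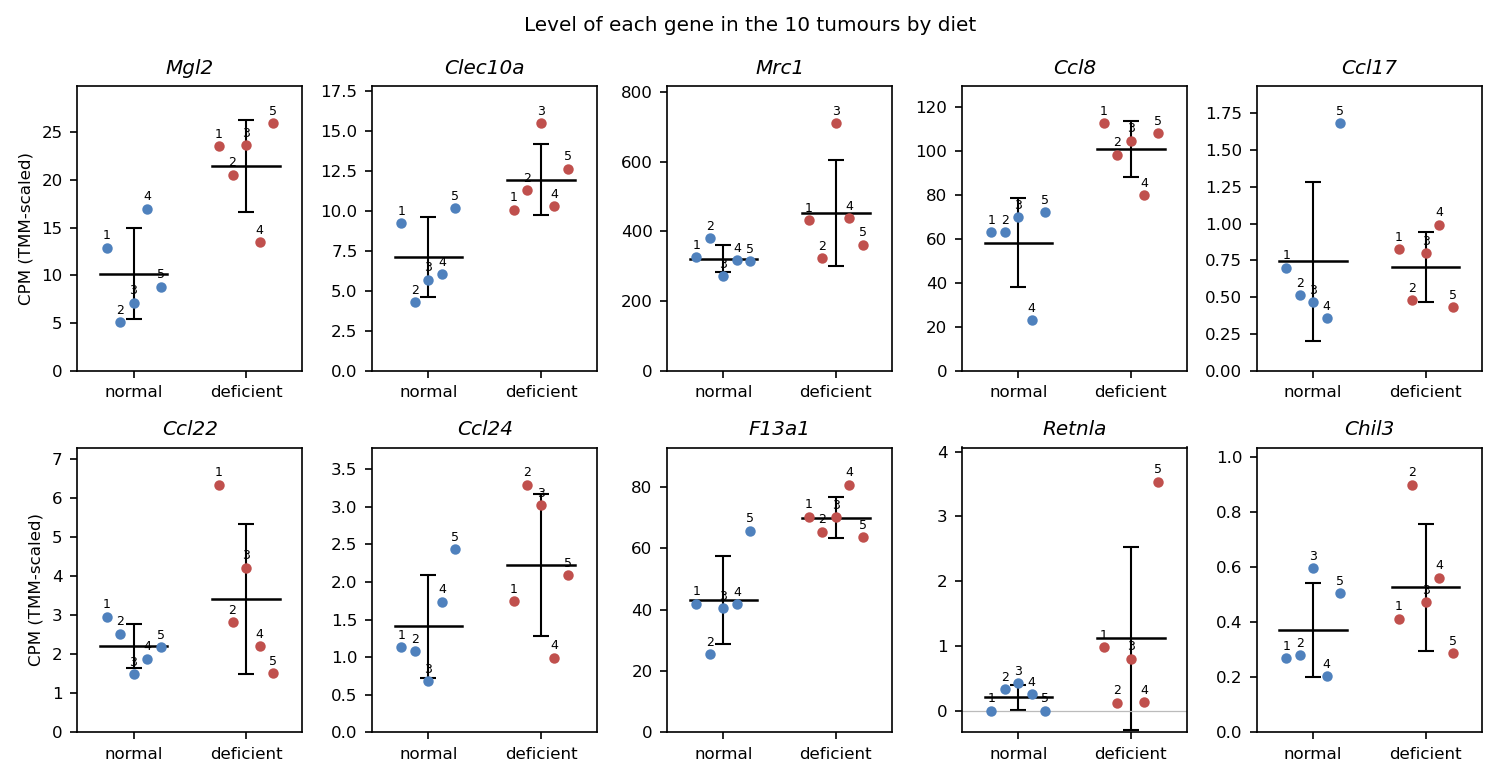
Level of each of the 10 genes (vertical axis, CPM after TMM scaling) in 5 normal-diet tumours (blue) and 5 arginine-deficient tumours (red). Numbers are replicates, lines the mean and bars the SD; Ccl8 is the gene whose diets do not overlap (23.0 to 72.3 against 80.0 to 113 CPM), and the wide bar of Retnla comes with 3.53 CPM in deficient replicate 5.

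Mgl2 encodes a lectin that binds galactose and N-acetylgalactosamine on glycoproteins. In normal-diet replicates 1 to 5 it stood at 12.9, 5.10, 7.15, 17.0 and 8.83 CPM. In deficient replicates 1 to 5 it stood at 23.6, 20.5, 23.7, 13.5 and 26.0 CPM. Of the deficient tumours 4 were above every normal-diet tumour, and deficient replicate 4, at 13.5 CPM, lay below normal-diet replicate 4. The log2 fold change was 1.07 (SE 0.30, 95% interval 0.42 to 1.72), with an edgeR adjusted p of 0.369.

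Clec10a, the neighbouring and closely related lectin gene, stood at 9.23, 4.31, 5.71, 6.03 and 10.2 CPM on the normal diet. On the deficient diet it stood at 10.1, 11.3, 15.5, 10.3 and 12.6 CPM. The diets overlapped only through normal-diet replicate 5, which at 10.2 CPM was just above deficient replicate 1. Its log2 fold change was 0.76 (SE 0.24, 95% interval 0.23 to 1.28; edgeR adjusted p = 0.466). The aligned parts of the longest transcripts of Mgl2 and Clec10a, 704 bases, were 96.7% identical, and 6.4% of Mgl2 transcript bases lie in exact stretches of at least 50 bases found in another gene. Reads from such stretches may have been dropped or split by the counting, so the pair's separate values are uncertain to that extent.

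Mrc1 encodes the mannose receptor CD206, which takes up glycoproteins and collagen fragments. Its normal-diet tumours lay close together, at 326, 381, 272, 318 and 314 CPM. The deficient tumours stood at 433, 323, 711, 439 and 363 CPM. Deficient replicates 1, 3 and 4 were above every normal-diet tumour, whereas replicates 2 and 5 lay within the normal range. The log2 fold change was 0.49 (SE 0.19, 95% interval 0.07 to 0.92; edgeR adjusted p = 0.647) and was 0.28 without deficient replicate 3, the tumour with most muscle and mitochondrial transcripts. Without the 3 tumours richest in muscle the log2 fold change was 0.21.

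On mm10, Mgl2 (ENSMUSG00000040950.13) spans 70130329 to 70137550 and Clec10a (ENSMUSG00000000318.16) spans 70156197 to 70170834 of chromosome 11, so that the pair are neighbours on the same strand. Mrc1 (ENSMUSG00000026712.3) spans 14229392 to 14332057 of chromosome 2. Ccl8 (ENSMUSG00000009185.2) lies at 82115185 to 82116799 of chromosome 11. Ccl22 (ENSMUSG00000031779.3) and Ccl17 (ENSMUSG00000031780.2) lie close together on chromosome 8, at 94745590 to 94751699 and 94810453 to 94812036. Ccl24 (ENSMUSG00000004814.10) lies at 135569937 to 135573049 of chromosome 5 and F13a1 (ENSMUSG00000039109.16) at 36867178 to 37050244 of chromosome 13. Retnla (ENSMUSG00000061100.5) lies at 48842551 to 48844461 of chromosome 16 and Chil3 (ENSMUSG00000040809.10) at 106147554 to 106167564 of chromosome 3. All are annotated as protein-coding, and these positions cover exons and introns. The RefSeq start sites used for the Mgl2 and Retnla promoters lie downstream of the gene starts given here. The end of the Mgl2 stretch shown, at 70130356, thus lies inside the gene as placed here.

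Ccl8 encodes a chemokine that in the mouse acts on Ccr8. It was the 1 gene of the 8 whose diets did not overlap with every deficient tumour higher, as was so for 0.835% of all tested genes (1.65% in either direction). The normal-diet tumours stood at 63.1, 63.2, 69.8, 23.0 and 72.3 CPM and the deficient tumours at 113, 98.3, 105, 80.0 and 108 CPM. The highest normal-diet tumour thus lay below the lowest deficient tumour, replicate 4, and the diets also did not overlap when CPM was taken from library totals. Its log2 fold change was 0.79 (SE 0.25, 95% interval 0.24 to 1.34; edgeR adjusted p = 0.465). Without normal-diet replicate 4, whose level was under that of every other tumour, it was 0.58.

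Ccl22 and Ccl17 encode the ligands of Ccr4, a receptor of regulatory and type 2 helper T cells. Ccl22 stood at 2.97, 2.53, 1.49, 1.89 and 2.19 CPM on the normal diet and at 6.34, 2.82, 4.22, 2.20 and 1.51 CPM on the deficient diet. Only deficient replicates 1 and 3 were above the normal range, and replicate 5 was near its lower end. The log2 fold change of 0.65 (SE 0.37, 95% interval -0.15 to 1.44; edgeR adjusted p = 0.843) was 0.29 without deficient replicate 1. Ccl17 had 6 to 26 counts per library and a log2 fold change of 0.02 (SE 0.43, 95% interval -0.91 to 0.95; edgeR adjusted p = 0.999). Its mean level was 0.706 ± 0.241 CPM in deficient and 0.745 ± 0.539 CPM in normal-diet tumours (SD over 5 each), against the sign of the fit. Its highest tumour, at 1.68 CPM, was normal-diet replicate 5, and the deficient tumours (0.433 to 0.993 CPM) lay within the normal range. The difference between the fold changes of Ccl22 and Ccl17 was not tested.

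Ccl24, an eotaxin that acts on Ccr3 of eosinophils, had 16 to 83 counts per library. It stood at 1.13, 1.08, 0.681, 1.74 and 2.44 CPM on the normal diet. On the deficient diet it stood at 1.74, 3.30, 3.02, 0.993 and 2.09 CPM. Deficient replicates 2 and 3 were above the normal range and replicate 4 was below its median. The log2 fold change was 0.68 (SE 0.40, 95% interval -0.19 to 1.55; edgeR adjusted p = 0.860).

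F13a1 encodes the A chain of coagulation factor XIII, which crosslinks fibrin and is made by monocytes and resident macrophages. The normal-diet tumours stood at 42.0, 25.5, 40.4, 41.8 and 65.7 CPM. The deficient tumours stood at 70.3, 65.4, 70.1, 80.7 and 63.5 CPM, with a coefficient of variation of 9.53% against 33.4% on the normal diet. Normal-diet replicate 5, at 65.7 CPM, lay above deficient replicates 2 and 5, and the other normal-diet tumours lay below all deficient tumours. The log2 fold change was 0.70 (SE 0.20, 95% interval 0.27 to 1.14; edgeR adjusted p = 0.383), and 0.90 with an adjusted p of 0.0820 without normal-diet replicate 5. Of the exonic bases of F13a1, 66.9% lie inside the bodies of overlapping predicted genes, so reads may have been lost or shared there; strand use in the counting was not stated.

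Retnla and Chil3, which encode the resistin-like protein FIZZ1 and the chitinase-like protein Ym1, are well known IL-4 targets of mouse macrophages and had few counts in every library. Retnla had 0, 7, 10, 5 and 0 counts in normal-diet replicates 1 to 5 and 31, 2, 22, 3 and 49 in deficient replicates 1 to 5. The 3 deficient tumours at 0.983, 0.800 and 3.53 CPM were above the normal range of 0 to 0.426 CPM, and the other two lay within it. A count of 0 allows up to 0.162 CPM in normal-diet replicate 1 and 0.252 CPM in replicate 5, for counting error only. Chil3 had 4 to 15 counts per library, with mean levels of 0.371 ± 0.169 CPM (normal diet) and 0.527 ± 0.230 CPM (deficient diet; SD, n = 5 each) that overlapped. Neither was tested with the filter on low counts. With no filter their log2 fold changes were 2.29 (SE 0.96) and 0.51 (SE 0.45), with edgeR adjusted p of 0.727 and 0.860.

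**Figure D2:**
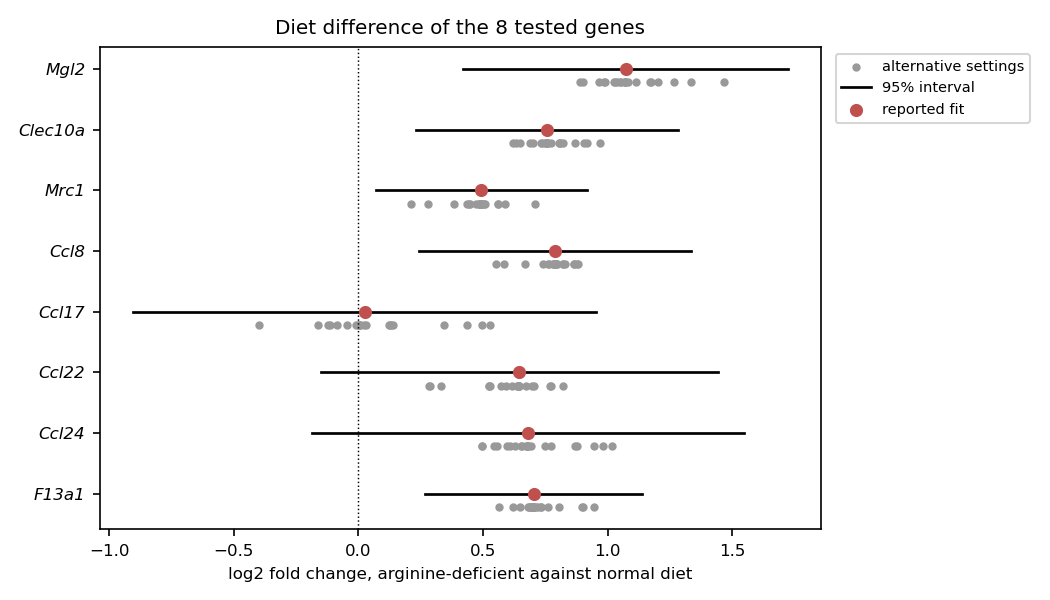
Log2 fold change of the 8 tested genes (horizontal axis; positive is higher on the arginine-deficient diet) with its 95% interval, and below each the values under the alternative settings as grey points. The intervals of Mgl2, Clec10a, Mrc1, Ccl8 and F13a1 lie above 0, whereas those of Ccl17, Ccl22 and Ccl24 cross it, and Ccl17 has points on both sides.

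Levels were compared between genes per kilobase of exon. Ccl8 was highest, with a mean of 156 ± 53.7 CPM per kilobase (SD, n = 10), followed by Mrc1 with 60.9 ± 19.7, and Ccl8 was above Mrc1 in 9 of 10 tumours. F13a1 (8.39 ± 2.63) and Mgl2 (7.56 ± 3.56) did not differ beyond their spread, F13a1 being higher in 5 of 10 tumours. Mgl2 was above Clec10a (3.28 ± 1.17) in 10 of 10 tumours, and Clec10a above Ccl17 (1.41 ± 0.77) in 10 of 10. Ccl17, Ccl24 (1.41 ± 0.69), Ccl22 (1.21 ± 0.64) and Retnla (1.10 ± 1.77) overlapped, and Chil3 (0.275 ± 0.127) had the lowest mean. The level of F13a1 is a lower estimate if reads in its overlapped exons were dropped.

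**Figure D3:**
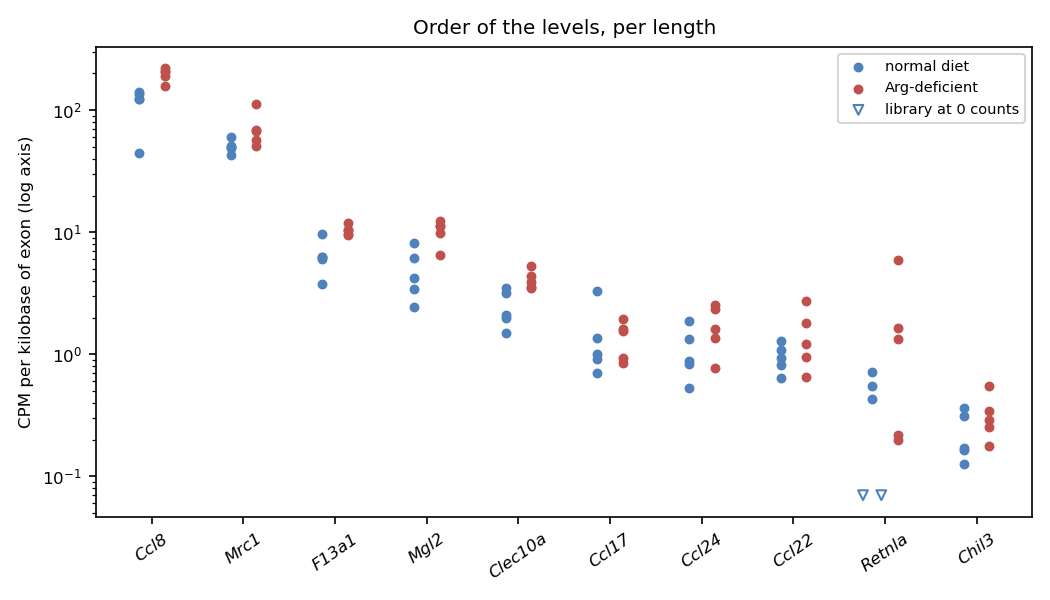
CPM per kilobase of exon (vertical log axis) of each gene in every tumour, ordered by mean; blue is the normal and red the arginine-deficient diet, and open triangles are the 2 Retnla libraries with 0 counts. Ccl8 and Mrc1 stand above the other genes, and Ccl17, Ccl24, Ccl22 and Retnla overlap.

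The 10 genes were set beside general macrophage markers. Of 18 markers 17 were tested, 7 were higher and 10 lower, the median log2 fold change was -0.03, and none passed by edgeR, DESeq2 or limma voom (1 at an unadjusted p under 0.05). Itgam was listed at 0 in every library, as were Irf8 and Il2rg. The reason is not stated and was not tested, so a listed 0 is not read as absent expression. The summed level of the macrophage markers ran from 3130 to 3967 CPM in deficient and from 2973 to 3856 CPM in normal-diet tumours. On the log2 scale the ratio of Ccl8 to this sum ran from -5.33 to -5.01 in deficient tumours and from -7.01 to -5.58 in normal-diet tumours, again without overlap. The same ratio of Mgl2 ran from -7.86 to -7.15 and from -9.52 to -7.45, and that of Mrc1 from -3.62 to -2.24 and from -3.62 to -3.22, both with overlap. With the summed macrophage level as a covariate of edgeR, the log2 fold changes were 1.11 for Mgl2, 0.75 for Clec10a, 0.49 for Mrc1, 0.79 for Ccl8 and 0.71 for F13a1, with adjusted p from 0.413 to 0.703.

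**Figure D4:**
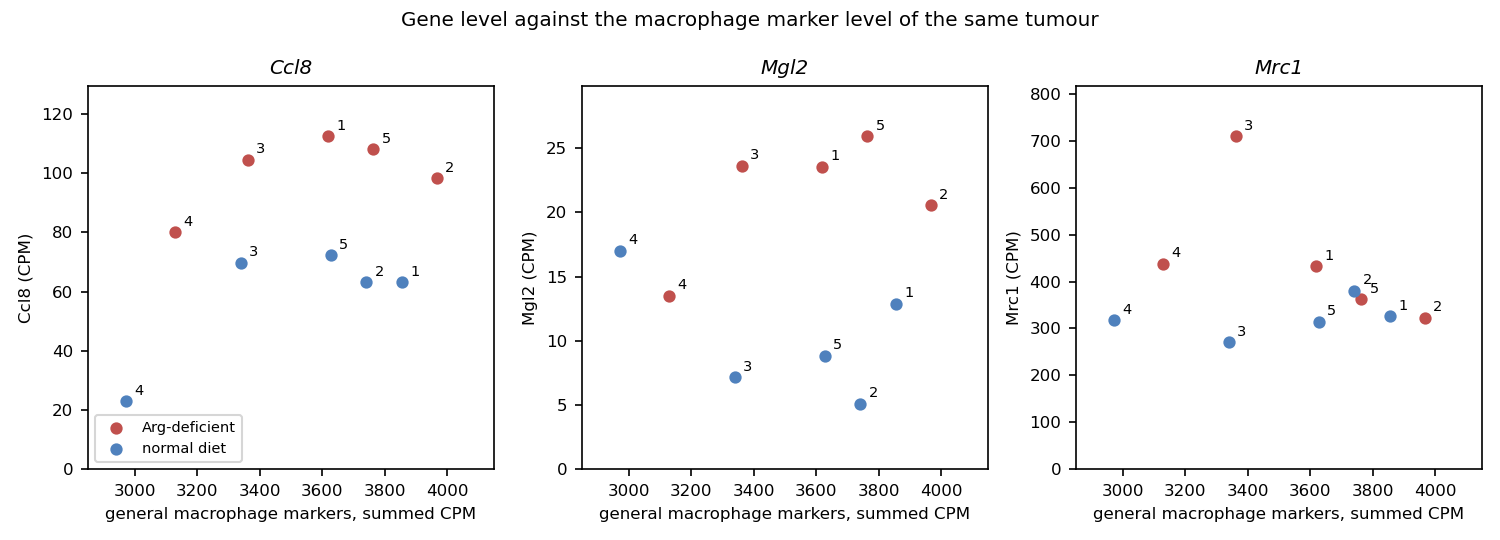
Level of Ccl8, Mgl2 and Mrc1 (vertical axes, CPM) against the summed level of the general macrophage markers (horizontal axis, CPM) in the same tumour, with replicate numbers; red is the arginine-deficient and blue the normal diet. The marker sums of the diets overlap (3130 to 3967 against 2973 to 3856 CPM), while every red point of Ccl8 lies above every blue one.

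Markers of other cells that could carry these genes were summed in the same way. Dendritic cell markers ran from 267 to 330 CPM in deficient and from 258 to 289 CPM in normal-diet tumours, with 8 of 12 tested higher and a median log2 fold change of 0.11; Irf8 was listed at 0 in every library. With their sum as a covariate the log2 fold change of Ccl8 was 0.55, of Mgl2 0.89, of Clec10a 0.82, of F13a1 0.94, of Mrc1 0.71, of Ccl24 0.65, of Ccl17 0.53 and of Ccl22 0.33, and 0 genes of the whole table passed by edgeR. Markers of resident macrophages were higher in 12 of 12 (median 0.36), with sums of 423 to 719 CPM in deficient and 328 to 470 CPM in normal-diet tumours; Pf4 (log2 fold change 0.56, SE 0.23) and Gas6 (0.47, SE 0.20) had the smallest p, and none passed by edgeR or DESeq2 and 1 by limma voom. Monocyte markers were higher in 8 of 12 (median 0.03), with sums of 496 to 734 against 524 to 733 CPM. Eosinophil markers summed to at most 1.13 CPM, with Epx at 0 to 2 counts per library. Haemoglobin genes were lower in 4 of 4 (median -1.69; 0 passed by edgeR, 2 by DESeq2), with sums of 56.2 to 106 against 101 to 602 CPM. Most of the dendritic cell sum was Sirpa (mean 197 CPM deficient, 167 CPM normal diet), followed by Naaa (58.1 and 51.4 CPM). Both were higher on the deficient diet, whereas 4 of the 12 tested were lower, Zbtb46 (-0.29) among them. The covariate thus describes Sirpa more than that list. With this covariate the SE was larger for every tested gene of the set, as for Mgl2 (0.42 against 0.30) and Ccl8 (0.32 against 0.25). The part of dendritic cells in the differences of the 10 genes was thus not tested by that fit. That of resident macrophages and blood was not tested, and neither sum was used as a covariate.

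The genes were also compared with each other within a diet. After each diet's mean log2 level was subtracted, the 28 pairs of the 8 tested genes had a median Pearson r of 0.18 over the 10 tumours, from -0.47 to 0.73, and 21 pairs were positive. Clec10a and F13a1 had an r of 0.70 (Spearman 0.48), F13a1 and Ccl17 0.73 (0.61), and Mgl2 and Clec10a 0.47 (0.53). Mgl2 and Ccl8, the genes with the largest log2 fold changes, had an r of -0.47 (-0.38). These are descriptions over tumours that also differ in depth and tissue. Against the summed levels of the marker and pathway lists, Ccl8 ran from an r of -0.80 with type 2 lymphoid markers to 0.69 with general macrophage markers. The type 2 lymphoid sum was mostly Il1rl1 (mean 254 CPM deficient, 277 CPM normal diet). It was highest, at 383 CPM, in normal-diet replicate 4, the tumour lowest in Ccl8. Mrc1 had an r of -0.89 with IL-4 signalling genes, -0.82 with the other IL-4 response genes, -0.78 with migratory dendritic cell markers and -0.71 with neutrophil markers. It had an r of 0.70 with the chemokine receptors, 0.75 with resident macrophage markers, 0.80 with keratinocyte markers and 0.90 with fat cell markers. The keratinocyte sum was mostly Krt10 (mean 3.63 CPM deficient, 2.95 CPM normal diet) and Trp63 (1.24 and 1.03 CPM). The remaining keratinocyte markers had 0 to 3 counts per library. Selenop was the largest part of the resident macrophage sum (231 and 176 CPM). Fn1 made up most of the sum of the other IL-4 response genes (mean 4632 CPM deficient, 4933 CPM normal diet). The r of -0.82 thus describes Fn1 more than that list. The fat cell list holds Car3, which muscle also expresses and which had 10 to 5783 counts per library, and 5 of its 7 tested genes were lower on the deficient diet. Deficient replicate 3 was highest for Mrc1, muscle and the resident macrophage and fat cell sums and lowest for both IL-4 lists, and its part in these values was not tested. With the haemoglobin sum, Clec10a had an r of 0.80, F13a1 0.70 and Ccl17 0.65, whereas Retnla had -0.54.

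Of 11165 other protein-coding genes averaging at least 2 CPM, those most like each member within a diet were named by the same r. For Ccl8 they were Il21r (0.96), the phospholipase family gene Pld4 (0.90) and Apold1 (0.90), with Spearman values of 0.73, 0.65 and 0.47; the normal-diet tumour far below the others in Ccl8 enters these. For Mgl2 they were Prg4 (0.93), Ywhah (0.88) and Ctdnep1 (0.87), for Clec10a Ube2t (0.93), Dtymk (0.93) and Coa4 (0.92), and for Mrc1 Pigp (0.98), Slc16a10 (0.96) and Ociad2 (0.96). For Ccl22 they were Acadm (0.96), Fabp4 (0.93) and Nsmce2 (0.92), and for F13a1 Myl4 (0.93), Plekhg6 (0.92) and Cdk18 (0.92). These are the highest of 11165 values over 10 tumours and are given as a description.

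Genes of IL-4 signalling were split between the diets. Of 15 tested, 8 were higher and 7 lower with a median log2 fold change of 0.03; none passed by edgeR, DESeq2 or limma voom, and 2 had an unadjusted p under 0.05, both lower. These were the decoy receptor Il13ra2 (8.05 ± 2.27 CPM in normal-diet and 5.09 ± 1.91 CPM in deficient tumours, SD of 5 tumours), with a log2 fold change of -0.66 and an SE of 0.28, and the nuclear receptor Pparg (-0.74, SE 0.33). Il4 averaged 4.72 CPM in deficient and 4.95 CPM in normal-diet tumours (log2 fold change -0.07, SE 0.27), Il13 had 0 to 3 counts per library, and Il2rg was listed at 0. For the receptor chain Il4ra the log2 fold change was 0.11 (SE 0.14), and for Stat6 it was 0.13 (SE 0.13). Kdm6b (0.38, SE 0.20) and Cish (0.44, SE 0.31) followed in order of p.

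Other genes known to respond to IL-4 in macrophages were higher in 14 of 21, with a median log2 fold change of 0.27; none passed by edgeR (6 at an unadjusted p under 0.05, all higher), 2 by DESeq2 and 3 by limma voom. Over all genes, 3.54% were higher at that unadjusted p, and 0.506% and 1.59% passed as higher by DESeq2 and limma voom. The signalling inhibitor Socs2 averaged 19.6 CPM in deficient and 12.9 CPM in normal-diet tumours (edgeR adjusted p = 0.317) and the cationic amino acid transporter Slc7a2 12.9 and 6.26 CPM (adjusted p = 0.465). For Pdcd1lg2, which encodes a ligand of PD-1, it was 1.49 on the log2 scale (SE 0.41) and for Myc 0.45 (SE 0.16).

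Of the receptors of these chemokines, Ccr4 had 0 to 10 counts and Ccr3 1 to 9 counts per library. Ccr8 averaged 0.749 and 0.658 CPM on the deficient and normal diets (log2 fold change 0.17, SE 0.55). Ccr2 and Ccr1 had log2 fold changes of -0.17 and 0.14, and none of the 4 tested receptors passed by edgeR, DESeq2 or limma voom or had an unadjusted p under 0.05. Of the other myeloid C-type lectins tested, 6 were higher and 6 lower (median log2 fold change -0.01). Cd209a (0.92, SE 0.42) was the 1 with an unadjusted p under 0.05, and Clec4n (0.31, SE 0.15), Mrc2 (-0.30, SE 0.24) and Ly75 (-0.15, SE 0.12) came next; none passed by edgeR, DESeq2 or limma voom.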

How the data were processed

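The deposited table holds the authors' unnormalized read counts by gene for 10 tumours, 1 column per library; FastQC, STAR and featureCounts on mm10 are named in the submitters' processing notes, without versions, settings, strand or annotation release. Each column was matched to its library by the number in the sample's description, and Arg in a title was taken to mean the deficient diet, Control the normal one. Totals ran from 12013178 to 31530123 counts, and any pair of libraries differed by a chi-square of at least 17.1 per degree of freedom, so all 10 counted as separate samples. That they are separate animals is read from the series' design text. Symbols and positions came from GENCODE M21: 21379 identifiers matched with their version, 437 with another (Retnla among them) and 33 not at all.

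The diets were compared with edgeR 4.0.16 in R 4.3.3 (quasi-likelihood F test, TMM, filterByExpr with a minimum count of 10 and minimum total of 15, diet only), adjusted by Benjamini-Hochberg over 12929 genes at a threshold of 0.05. Each SE was obtained by dividing the absolute log2 fold change by the root of its F statistic. DESeq2 1.42.0 and limma 3.58.1 were alternatives. The test was checked on simulated data for this comparison of 12929 genes. At a 1.5-fold change 13.9% of changed genes were called, at 2-fold 70.1% and at 4-fold 97.5%. Each of 3 runs changed 200 genes at once, whereas 7 genes passed in the data. More changed genes ease the adjusted threshold, so the shares may overstate the power in these data. These shares pool the 201, 201 and 198 genes changed in the simulation and were not split by level. Only genes averaging at least 2 CPM were changed. The shares therefore do not give the power for a gene with a lower mean, such as Ccl17 or Ccl24. For correlations 0.5 was added to CPM before log2. The genes described, the gene lists and the naming rule were chosen with earlier results of these data known. The rule named all 10 genes, up to 4 genes of smallest p from each list described, and the 3 genes most like each member averaging at least 2 CPM. It also allowed genes of IL-4 signalling and chemokine receptors that were at 0 or untested. Fn1 was named outside the rule, for its share of a summed level. Also outside it were Il4, Il4ra and Stat6, the carcinoma markers Cd44, Epcam and Krt8, and Epx, Itgam and Irf8. Cell type markers came from the same lists. Covariate fits on GC content and gene length, and leaving out the 2 libraries with most Gapdh, were chosen after seeing the data. Some genes of the lists are not reported here by name.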

Additional observations from a re-analysis of the deposited data

Results flagged for a closer look

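Among 20 groups of 5 tumours (10 genes in each diet), 3 held a tumour far from the others by Dixon's criterion at the 95% level, which chance reaches in about 1 in 20 groups. Ccl8 was lowest in normal-diet replicate 4, at 23.0 CPM against 63.1 to 72.3 CPM in the other 4. Ccl17 was highest in normal-diet replicate 5, at 1.68 CPM against 0.358 to 0.702 CPM. Retnla was highest in deficient replicate 5, at 3.53 CPM (49 counts) against 0.120 to 0.983 CPM.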

How the results depend on the processing

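The fold changes of the 8 tested genes were refitted under the alternatives, giving 175 values, of which 163 kept their direction and side of the threshold. Ccl17 turned negative in 8, with -0.0078 with no filter on low counts, -0.40 without the 3 libraries richest in muscle and -0.16 to 0.50 when 1 library was left out. Mgl2 passed under DESeq2 (1.07) and limma voom (1.27), as did Clec10a (0.90) and F13a1 (0.80) under limma voom.

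Over all genes edgeR called 7, DESeq2 132 and limma voom 373. The count was 18 without the 3 muscle-rich libraries, 0 with dendritic cell markers as a covariate, 68 with GC and gene-length slopes and 0 without the 2 libraries with most Gapdh, the last pair chosen after seeing the data. Leaving out 1 library gave 0 to 16 calls: 2 without deficient replicates 1, 2 or 5 or normal-diet replicate 2, 0 without normal-diet replicates 1 or 3, 16 without deficient replicate 3 and 15 without normal-diet replicate 5. The cause was not tested. The replicate block gave 1 call. Same-numbered libraries correlated at -0.35 to 0.18 after removing diet means, and 1 of the 5 numbers matched best with itself. These values show no sign of pairing, but so few numbers cannot tell whether cages or days were shared.

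Ccl17, Retnla and Chil3, with few counts, are limited by depth.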
